A study of Homo sapiens with 12 samples.

Results

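ATF4 is the transcription factor at the centre of the integrated stress response, and the 10 genes described here are ATF4 itself together with ATF5, DDIT3, ATF3, TRIB3, DDIT4, SESN2, CHAC1, INHBE and CEBPB. They are 10 of the 43769 genes in the count table, taken by name over all 12 libraries. They were chosen by their place in the ATF4 network and by their differences with doxycycline in these same libraries, where INHBE and CHAC1 were known to be among the strongest increases. Levels and differences of the members between libraries with and without doxycycline are therefore given as a description, with no test. The members are tested for the average effect of interferon-gamma, which the choice did not use. Their interaction of doxycycline and interferon-gamma is also given, but it contains the doxycycline differences behind the choice.

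RNA-sequencing was performed on SK-N-DZ cells, a MYCN-amplified neuroblastoma line. The cells carried a doxycycline-inducible short hairpin RNA (shRNA) against ARID1A, a subunit of the SWI/SNF chromatin remodeling complex, delivered by a Tet-pLKO-puro lentivirus and kept as a clone. There were 4 groups with 3 libraries each: control cells (C, labelled WT), cells given doxycycline for 4 days (D, labelled shARID1A), cells given interferon-gamma (IFNγ) for 24 h (I, labelled WT) and cells given both agents (DI, labelled shARID1A). Every group carried the hairpin construct and no library had doxycycline without it, so doxycycline, the hairpin and loss of ARID1A cannot be told apart. The labels number the replicates without saying whether they were separate cultures, and p-values measure only the spread between these libraries. In bulk RNA, more cells with a transcript and more transcript per cell also cannot be told apart.

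The integrated stress response begins when kinases that sense amino acid shortage, misfolded protein, viral RNA or heme shortage phosphorylate the translation factor eIF2. General translation then falls while the ATF4 mRNA is translated more, and ATF4 protein switches on genes for amino acid supply and redox balance together with further transcription factors. DDIT3 (also called CHOP), ATF3 and CEBPB bind DNA in the same network, TRIB3 feeds back on ATF4, and prolonged activity is known for its link to cell death. ATF4 protein is set largely by translation, which mRNA counts do not measure.

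ATF4 binds DNA as a dimer with C/EBP proteins at the C/EBP-ATF composite element, and the windows below are shown because they are the members' matches to its letters TGATGNAA, read on either strand. The windows searched run from 250 bases before to 50 bases after each RefSeq start site (GRCh38.p14), and 9 of the 10 members have such a window, all but INHBE. The letters were found for 2 of these 9 members, CHAC1 and ATF3, and for 4.46% of the 27305 genes with a window. Capitals mark the match, which begins at position −209 from the start site in CHAC1 (chr15:40953251-40953280, plus strand, in the other orientation) and at position −191 in ATF3 (chr1:212565205-212565234, plus strand).
CHAC1: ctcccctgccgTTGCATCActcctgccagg
ATF3: aaaggtcaggaTGATGGAAggctgtcatat
In GENCODE release 29 the CHAC1 match lies in the first exon, in the 5′ UTR of transcripts that begin further upstream, while the ATF3 match lies before the annotated gene. The cAMP response element TGACGTCA was found for 0 of 9 members and 2.25% of genes, and the C/EBP palindrome TTGCGCAA for 0 of 9 and 0.172%. For the letters linked to interferon signaling, the gamma-activated site TTCNNNGAA was found for 0 of 9 members and 9.38% of genes, and the letters GAAANNGAA of an interferon-stimulated response element for 1 of 9 and 9.86%. That member was ATF5, with 3 matches, the first pair of which overlap. The first begins at position −91 (chr19:49928805-49928834, plus strand) and is shown because IFNγ is the treatment tested below.
ATF5: tgcaagcaagGAAAGGGAAagagaaatgaa
In GENCODE release 29 this ATF5 stretch lies inside the annotated gene, which begins at 49928702. A match is a run of letters and was not tested as a binding site.

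Libraries held between 16469832 and 21790869 counts, at which 3 counts, taken as the detection floor, equal 0.138 to 0.182 CPM (counts scaled to a common library size). All 10 members passed edgeR's filter on low counts, which kept 15828 genes. Gene positions are those of GENCODE release 29 (GRCh38). The target of the hairpin, ARID1A (chromosome 1, 26693236 to 26782110), had 197, 186 and 165 CPM in the C libraries (replicates 1 to 3) against 197, 159 and 158 CPM in D. With IFNγ, the I libraries had 192, 203 and 194 CPM and the DI libraries 151, 133 and 148 CPM. The D and C libraries overlapped, while every DI library was below every I library. ARID1A differed by a log2 fold change of −0.09 (SE 0.11, edgeR adjusted p = 0.788) in D vs C and −0.44 (SE 0.11, adjusted p = 0.115) in DI vs I. Only the latter passed the threshold in other fits, with an adjusted p of 0.0111 with replicate numbers as a block and 0.00482 by DESeq2. The groups are therefore named by their labels. Among neuroblastoma markers, MYCN ran from 772 to 1500 CPM over the 12 libraries, whereas tyrosine hydroxylase (TH) ran from 0.695 to 74.7 CPM.

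ATF4 (ENSG00000128272, chromosome 22, 39519695 to 39522685) was expressed in every library and was higher in those with doxycycline. Replicates 1 to 3 had 338, 351 and 253 CPM in C and 391, 435 and 515 CPM in D. With IFNγ they had 258, 320 and 205 CPM in I and 365, 404 and 409 CPM in DI. Every D library was above every C library and every DI library above every I library, arrangements found for 10.1% and 8.17% of all tested genes. These shares are to be read beside each such separation of a member below. The share of genes with all doxycycline libraries above all others was not counted. The log2 fold change was 0.51 (SE 0.18) in D vs C and 0.59 (SE 0.18) in DI vs I, small differences that rank ATF4 at 1465 and 1028 of 15828 genes. Annotated ATF4 pseudogenes held at most 0.0542% of its counts each.

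ATF5 (ENSG00000169136, chromosome 19, 49928702 to 49933935), the paralogue of ATF4 linked to the mitochondrial stress response, varied widely between replicates. It had 2.64, 4.67 and 2.43 CPM in C and 8.63, 3.42 and 21.4 CPM in D. It had 4.16, 3.87 and 1.94 CPM in I and 7.80, 2.00 and 7.88 CPM in DI. The groups overlapped in both comparisons, and replicate 2 was lower with doxycycline than without it. The fitted log2 fold change was 1.77 (SE 0.67) in D vs C and 0.83 (SE 0.66) in DI vs I. ATF5 overlaps NUP62 and IL4I1 on the opposite strand, and whether the counting used strand is not given in the sources used here.

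DDIT3 (ENSG00000175197, chromosome 12, 57516588 to 57521737) encodes the pro-apoptotic factor CHOP. It had 4.49, 3.63 and 5.49 CPM in C and 4.15, 11.9 and 24.9 CPM in D. It had 3.61, 5.73 and 5.82 CPM in I and 8.06, 12.2 and 15.8 CPM in DI. Replicate 1 of D lay within the C range, whereas all DI libraries lay above all I libraries. Its difference was 1.59 (SE 0.52) on the log2 scale in D vs C and 1.25 (SE 0.52) in DI vs I, and MARS and MBD6 overlap the gene on the other strand.

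ATF3 (ENSG00000162772, chromosome 1, 212565334 to 212620777), a stress-induced factor that can repress its own network, had 5.41, 3.13 and 9.23 CPM in C and 7.63, 7.87 and 29.1 CPM in D. It had 6.68, 2.62 and 11.5 CPM in I and 10.9, 8.15 and 24.7 CPM in DI. The groups overlapped, although each replicate number was higher with doxycycline in both comparisons. Fitted over all libraries, the log2 fold change was 1.33 (SE 0.69) in D vs C and 1.07 (SE 0.68) in DI vs I. With the replicate number as a block it was 1.201 (SE 0.239) and 1.105 (SE 0.235).

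CEBPB (ENSG00000172216, chromosome 20, 50190734 to 50192689), a C/EBP factor that is both a partner and a target of ATF4, had 27.3, 19.4 and 32.8 CPM in C and 64.6, 33.0 and 189 CPM in D. With IFNγ it had 49.9, 50.7 and 51.0 CPM in I and 107, 57.8 and 179 CPM in DI. Neither pair of groups overlapped, but D replicate 2 exceeded the highest C library by a narrow margin. The log2 fold change was 1.85 (SE 0.57) in D vs C and 1.18 (SE 0.55) in DI vs I.

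**Figure D1:**
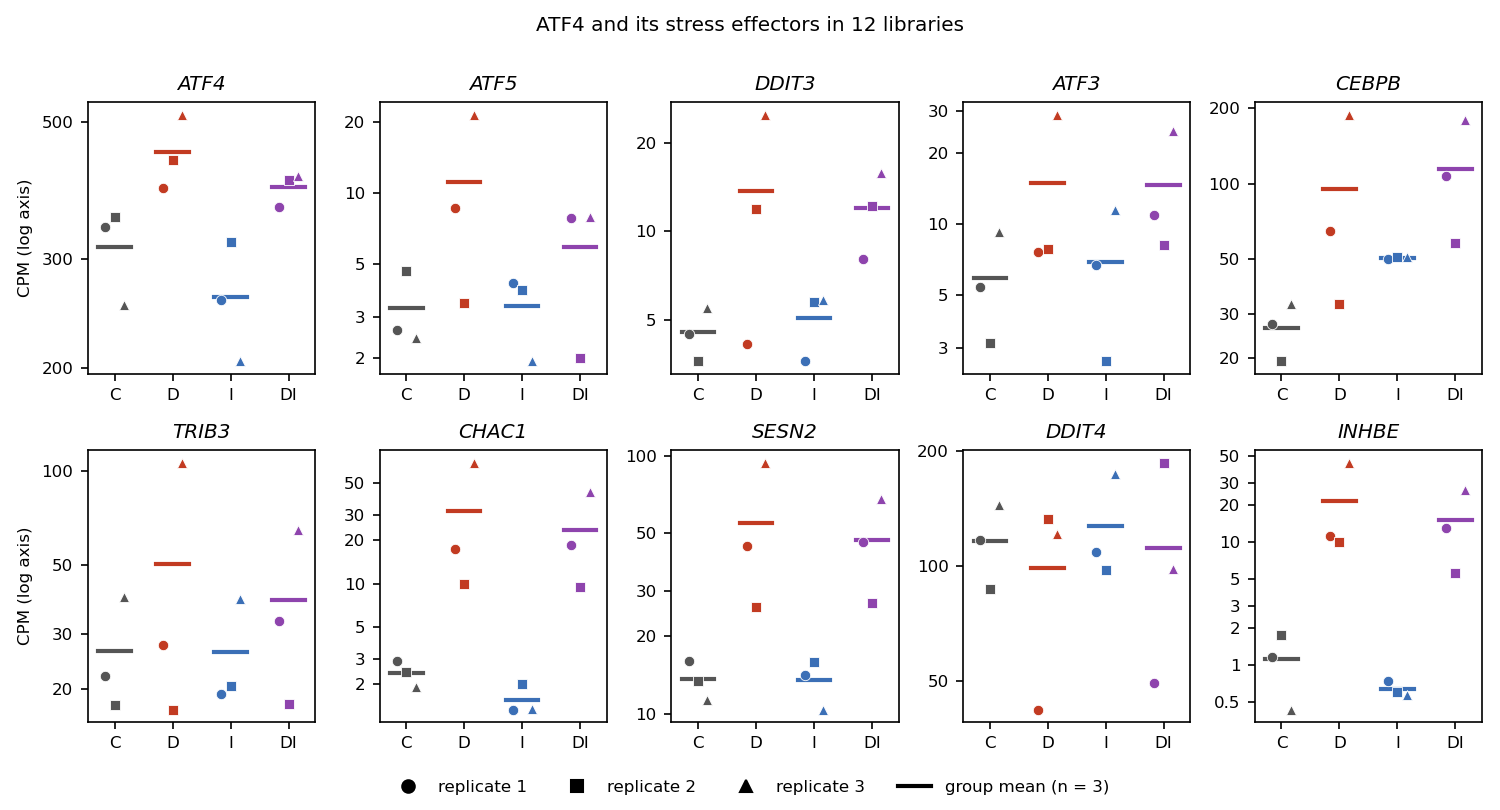
Level of each member in the 12 libraries, in CPM on a log axis with its own range for each gene, by group (C control, D doxycycline, I IFNγ, DI both; n = 3). Symbols give the replicate number and bars the group mean. ATF4, CHAC1, SESN2 and INHBE lie higher in every D and DI library than in any C or I library. The other members, DDIT4 among them, do not. Over all tested genes, D lies wholly above C for 10.1% and DI wholly above I for 8.17%. D and DI replicate 3 are the highest of their groups for 9 of 10 members.

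Among the effectors, CHAC1 and INHBE differed most. CHAC1 (ENSG00000128965, chromosome 15, 40952962 to 40956519), an enzyme that degrades glutathione, had 2.89, 2.43 and 1.93 CPM in C and 17.4, 10 and 69.1 CPM in D. It had 1.34, 2.02 and 1.36 CPM in I and 18.5, 9.49 and 43.0 CPM in DI. The lowest library with doxycycline, DI replicate 2, was above the highest library without it, C replicate 1. Group means were 13.3 times higher in D than in C and 15.0 times higher in DI than in I. The log2 fold change was 3.73 (SE 0.75) in D vs C and 3.91 (SE 0.77) in DI vs I, ranks 6 and 5 of 15828 genes.

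INHBE (ENSG00000139269, chromosome 12, 57452323 to 57459280) encodes the βE subunit of activin, a secreted protein of the TGF-β family best known from liver. It had 1.17, 1.74 and 0.436 CPM in C, where C replicate 3 held 7 counts, and 11.1, 9.94 and 43.8 CPM in D. It had 0.742, 0.600 and 0.576 CPM in I, or 15, 11 and 11 counts, and 13, 5.54 and 26.4 CPM in DI. The lowest library with doxycycline (5.54 CPM) was above the highest without it (1.74 CPM). The mean was 19.4 times higher in D than in C and 23.4 times higher in DI than in I, and within a replicate number the log2 ratio in D vs C ran from 2.52 (replicate 2) to 6.65 (replicate 3), the latter over those 7 counts. The log2 fold change was 4.25 (SE 0.77) in D vs C and 4.53 (SE 0.80) in DI vs I, ranks 4 and 3 of 15828 genes.

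SESN2 (ENSG00000130766, chromosome 1, 28259527 to 28282491) encodes sestrin 2, a leucine sensor that restrains mTORC1. It had 16.1, 13.4 and 11.3 CPM in C and 44.6, 25.9 and 93.9 CPM in D. It had 14.2, 15.9 and 10.4 CPM in I and 46.2, 26.9 and 67.9 CPM in DI. No library with doxycycline overlapped those without it. On the log2 scale it was higher by 2.01 (SE 0.45) in D vs C and 1.80 (SE 0.45) in DI vs I.

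TRIB3 (ENSG00000101255, chromosome 20, 362835 to 397559), a pseudokinase that inhibits ATF4 and AKT, had 22.1, 17.8 and 39.3 CPM in C and 27.7, 17.2 and 106 CPM in D. It had 19.3, 20.5 and 38.9 CPM in I and 33.1, 17.9 and 64.5 CPM in DI. The groups overlapped in both comparisons, and replicate 2 was slightly lower with doxycycline, at 0.967 and 0.877 times its level without it. Its log2 fold change of 0.93 (SE 0.66) in D vs C became −0.23 without D replicate 3, and that of 0.55 (SE 0.66) in DI vs I became −0.04 without DI replicate 3. Leaving out replicate number 3 from all groups kept it above 0, at 0.16 and 0.38, and replicate 1 was higher with doxycycline in both comparisons. With the replicate number as a block the log2 fold change was 0.635 (SE 0.271) in D vs C and 0.434 (SE 0.27) in DI vs I.

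DDIT4 (ENSG00000168209, chromosome 10, 72273920 to 72276036), or REDD1, a stress-induced inhibitor of mTORC1, was the 1 member that was not higher with doxycycline. It had 117, 87.3 and 144 CPM in C and 42.2, 133 and 121 CPM in D. It had 109, 97.6 and 174 CPM in I and 49.5, 186 and 98 CPM in DI. Replicate 1 was lower with doxycycline, at 0.360 and 0.453 times its level without it, while replicate 2 was higher, at 1.53 and 1.91 times. The log2 fold change was −0.24 (SE 0.49) in D vs C and −0.19 (SE 0.49) in DI vs I, and its sign turned in 6 of the fits that left out 1 library or 1 replicate number.

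Over the 10 members, 9 had a log2 fold change above 0 in each comparison, against 49.6% (D vs C) and 48.9% (DI vs I) of tested genes. The members' medians were 1.68 (D vs C) and 1.13 (DI vs I), beside −0.001 and −0.007 over all genes. Without D replicate 3 the D vs C median was 0.85, and without DI replicate 3 the DI vs I median was 0.63. Leaving out these same libraries gave 3.21 and 3.84 for INHBE, 2.50 and 3.15 for CHAC1, 1.37 and 1.44 for SESN2, 0.89 and 0.56 for ATF5, 0.82 and 0.998 for DDIT3, 0.88 and 0.71 for CEBPB, and 0.39 and 0.46 for ATF3. D vs C and DI vs I share no library, but both were known when the members were chosen.

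The size of the difference moved with the replicate number. Within D and within DI, replicate 3 was the highest library for 9 of 10 members, all but DDIT4, whereas the same held in both groups for 23.4% of tested genes. Replicate 2 was the lowest in both groups for 6 members (ATF5, CEBPB, CHAC1, INHBE, SESN2 and TRIB3), against 27.9% of genes. Without doxycycline the members did not follow 1 order: replicate 3 was the highest of both C and I for ATF3, CEBPB, DDIT3, DDIT4 and TRIB3, and the lowest of both for ATF4, ATF5, INHBE and SESN2. The members' median log2 level, centred on each gene's mean, was 1.77 in D replicate 3 and 1.27 in DI replicate 3, between 0.17 and 0.52 in the other doxycycline libraries, and between −0.90 and −0.43 in the libraries without doxycycline.

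**Figure D2:**
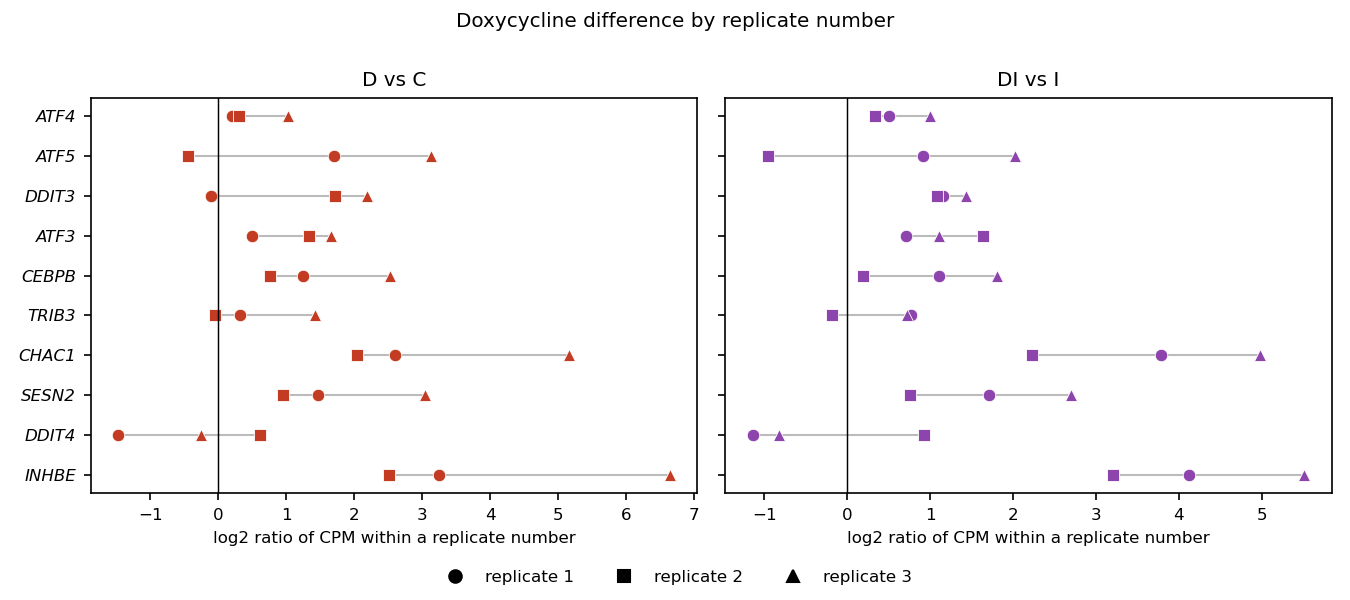
Log2 ratio of CPM with doxycycline over CPM without it for each replicate number, for D vs C (left) and DI vs I (right). Symbols give the replicate number, grey lines the range, and the vertical line no difference. INHBE and CHAC1 lie above 2 for every number, replicate 3 is the farthest right for 9 members in D vs C, and DDIT4 lies on both sides of 0.

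Compared per length, as CPM per kilobase of exon (RPKM), ATF4 was by far the highest member in each group, with 125 ± 21.3 RPKM (mean ± SD, n = 3) for C and 178 ± 25.2 RPKM for D, and with 104 ± 22.9 RPKM for I and 156 ± 9.54 RPKM for DI. In C it was followed by DDIT4 (56.5 ± 13.9 RPKM), CEBPB (13.5 ± 3.45) and TRIB3 (7.68 ± 3.31). SESN2 (3.94 ± 0.692 RPKM) and DDIT3 (3.47 ± 0.712) did not differ beyond their spread, nor did ATF3, CHAC1 and ATF5, which lay between 1.10 and 1.47 RPKM, and INHBE was lowest at 0.370 ± 0.216. In D, CEBPB (48.8 ± 42.1 RPKM) and DDIT4 (48.0 ± 24.0) overlapped, as did SESN2, CHAC1, TRIB3, DDIT3 and INHBE, whose means ran from 15.9 down to 7.16 RPKM. ATF5 and ATF3 had the lowest means there, at 3.77 ± 3.13 and 3.68 ± 3.05 RPKM, and their ranges overlapped that of INHBE. By the order of the means per length, CHAC1 moved from rank 8 in C to rank 5 in D and INHBE from rank 10 to rank 8. With the length of the longest transcript INHBE held the same ranks while CHAC1 went from 9 to 5. The ranges of CHAC1 in C and of both genes in D overlapped those of neighbouring members, so these ranks are a description of means. The rest of the order depended on the length used, since 6 of 10 members kept their rank in C and 4 in D.

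IFNγ is the comparison that the choice of members did not use. The 6 libraries with IFNγ were set against the 6 without it, with equal weight for those with and without doxycycline. Of the 15828 genes, 540 (3.41%) were called higher and 63 (0.398%) lower at an adjusted p under 0.05 by edgeR's quasi-likelihood test with Benjamini-Hochberg adjustment, and 1159 and 565 with the block. None of the 10 members was among them, with 0 called by DESeq2 and 0 called with the replicate number as a block. At an unadjusted p under 0.05 by edgeR there were 0 members and 1851 of the 15828 genes. With the block there were 1 member, CEBPB, and 3874 genes. Adjusted p-values of the members ran from 0.57 to 0.999 in the main fit.

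CEBPB had the largest positive value with IFNγ. Its level ran from 19.4 to 189 CPM without IFNγ (median 32.9, n = 6) and from 49.9 to 179 CPM with it (median 54.4, n = 6). The I libraries, which stood within about 1 CPM of each other, were all above the C libraries, whereas D and DI overlapped. The log2 fold change was 0.60 (95% interval −0.26 to 1.46, adjusted p = 0.681), made up of 0.93 (SE 0.56) in I vs C and 0.27 (SE 0.54) in DI vs D. With the replicate number as a block it was 0.71, with a 95% interval of 0.16 to 1.26 that leaves out 0. Its p by edgeR in that fit was 0.0158 unadjusted and 0.101 adjusted, the lowest adjusted p of a member there.

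INHBE and CHAC1 had the most negative values over all libraries, although without D replicate 3 they were at −0.15 and 0.08, and ATF4 at −0.17. INHBE had a median of 5.84 CPM without IFNγ and 3.14 CPM with it, and a log2 fold change of −0.67 (95% interval −1.80 to 0.46, adjusted p = 0.769). CHAC1 had medians of 6.46 and 5.75 CPM and a log2 fold change of −0.53 (95% interval −1.63 to 0.57, adjusted p = 0.843). The ranges with and without IFNγ overlapped widely for both. ATF4 itself was at −0.23, with the narrowest interval (−0.50 to 0.05, adjusted p = 0.57). The remaining members lay between −0.44 (ATF5) and 0.15 (DDIT4). The members' median was −0.16, beside −0.01 over all genes. These intervals reach a 2-fold difference for INHBE, CHAC1, ATF5, TRIB3, CEBPB and ATF3. With the replicate number as a block they were narrower, at −0.25 to 0.49 for ATF3 and −0.51 to 0.33 for TRIB3, and those of INHBE, CHAC1, ATF5 and CEBPB still reached 2-fold.

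Whether the doxycycline difference itself differed with IFNγ was tested as the interaction, DI vs I minus D vs C. Both of these differences were known when the members were chosen. For the members the interaction is therefore not independent of that choice, and no conclusion is drawn from it. The interaction was called for 0 of 10 members (each adjusted p = 1.0) and for 0 of 15828 genes (0.0%) by edgeR, with 99 genes at an unadjusted p under 0.05, while DESeq2 called 2 genes, no member among them, and the block called 0, with 374 at an unadjusted p under 0.05. Values of the members ran from −0.94 (ATF5, 95% interval −2.99 to 1.11) to 0.29 (INHBE, −1.94 to 2.51). For ATF4 the interval was −0.47 to 0.63, which reaches as far as its doxycycline difference.

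**Figure D3:**
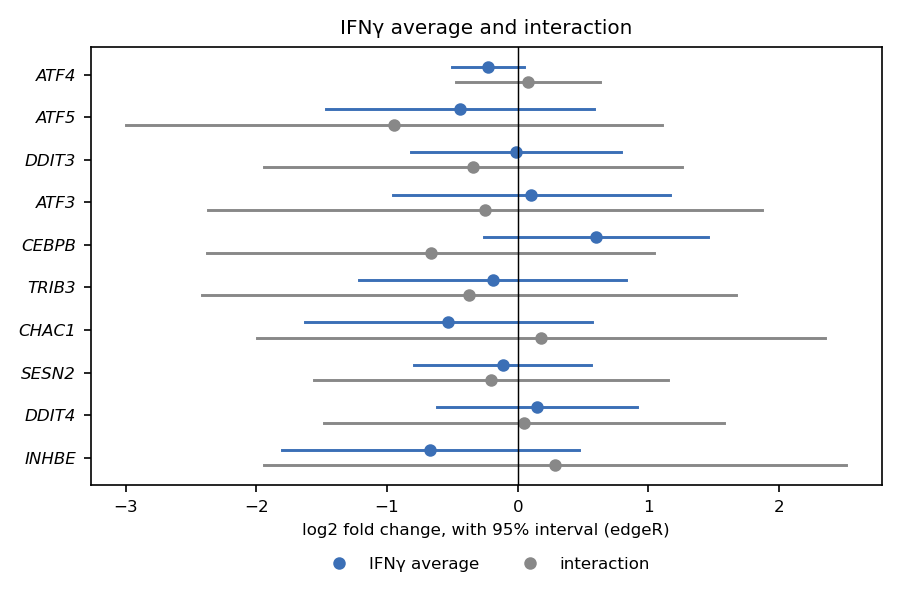
Log2 fold change of each member (points) with its 95% interval from edgeR (lines), for the average effect of IFNγ (blue) and for the interaction of doxycycline and IFNγ (grey). All 20 intervals, from the fit without the block, cross 0, and those of ATF4 are the narrowest.

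The genes around the members were counted by lists from general knowledge. In D vs C, 78 of all tested genes (0.493%) were called higher and 116 (0.733%) lower, and in DI vs I 16 (0.101%) were called higher and 90 (0.569%) lower. Before adjustment, edgeR had 2248 (D vs C) and 1934 (DI vs I) of the 15828 genes at a p under 0.05, to be read beside the unadjusted counts of each list. Fitting the replicate number as a block raised the totals called to 2200 and 1658 genes. The 21 further ATF4 targets in amino acid uptake and metabolism were all tested. By edgeR, 2 were called higher in D vs C (ALDH1L2 and SLC7A1) and 1 in DI vs I (ALDH1L2), with none lower. Log2 fold changes were above 0 for 20 and 19 of the 21, with medians of 0.64 and 0.62. At an unadjusted p under 0.05 by edgeR there were 13 and 11. DESeq2 called 9 and 8 of them higher, and the block 13 and 10. These lists overlap in theme with the members and were drawn up with results of these libraries known, so they are not independent evidence of a direction.

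ALDH1L2, the mitochondrial enzyme of folate-dependent one-carbon metabolism, had 12.7, 10.8 and 7.42 CPM in C and 29.5, 29.3 and 34.0 CPM in D. It had 8.16, 11.1 and 7.02 CPM in I and 29.8, 28.8 and 27.7 CPM in DI. It lay between 27.7 and 34.0 CPM in all 6 doxycycline libraries, with no overlap with the others. Its log2 fold change was 1.58 (SE 0.21, edgeR adjusted p = 0.00765) in D vs C and 1.72 (SE 0.21, adjusted p = 0.00497) in DI vs I, and it was called in each of the 12 fits that left out 1 library, but in none of the 3 that left out a replicate number. SLC7A1, a transporter of cationic amino acids, rose from 159, 179 and 186 CPM in C to 307, 257 and 398 CPM in D (log2 fold change 0.88, SE 0.18, edgeR adjusted p = 0.0464), a call kept in 3 of the 12 fits without 1 library. It had 142, 174 and 160 CPM in I and 245, 219 and 327 CPM in DI (0.73, SE 0.18), where edgeR did not call it (adjusted p = 0.116), but DESeq2 and the block did (adjusted p = 0.009 with the block).

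Of 20 further ATF4 targets in stress and signaling, 18 were tested and none was called with doxycycline in either comparison by edgeR, although 9 were at an unadjusted p under 0.05 in each, DESeq2 called 6 and 2, and the block called 9 and 7, all higher. The medians were 0.63 in both. GDF15, a secreted stress hormone, had 0.184, 0.447 and 0.312 CPM in C, close to the floor, and 2.57, 0.776 and 9.21 CPM in D (log2 fold change 3.69, SE 1.02). It was not called by edgeR (adjusted p = 0.123) but was by DESeq2 and with the block (adjusted p = 0.0356 with the block). STC2, a secreted glycoprotein, had a log2 fold change of 1.20 (SE 0.82, edgeR adjusted p = 0.571). FGF21 and NUPR1 were too low to test, with at most 21 and 11 counts in any library. In the average effect of IFNγ, WARS1, the tryptophanyl-tRNA synthetase and a known interferon target, rose by 3.70 (SE 0.23, edgeR adjusted p = 1.25e-06), the 1 call by edgeR in either ATF4 list. DESeq2 added CBS, lower with IFNγ, and the block 5 genes of amino acid metabolism, all lower (ALDH18A1, CBS, MTHFD1L, PHGDH and PYCR1).

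Upstream of ATF4, a list of 12 genes held eIF2 kinases, their sensors and the eIF2 phosphatase, together with EIF2S1, EIF2B5 and NCK1. All were tested, and none was called with doxycycline by edgeR, with 1 at an unadjusted p under 0.05 in each comparison. Their mRNA levels do not measure the activity of the kinases. DESeq2 called 1 (GCN1, higher in D vs C) and 0 (DI vs I). With the block, 3 were higher (EIF2AK3, GCN1 and PPP1R15B) and 1 lower (PPP1CA) in D vs C. In DI vs I 2 were higher with the block (EIF2AK3 and PPP1R15B). GCN1 had log2 fold changes of 0.29 (SE 0.08) and 0.16 (SE 0.08), and PPP1CA −0.31 and −0.29 (SE 0.16 each). PPP1R15B, the constitutive partner of the eIF2 phosphatase, had log2 fold changes of 0.60 (SE 0.50) and 0.56 (SE 0.50), with adjusted p of 0.66 and 0.75 by edgeR and 0.00195 and 0.00356 with the block. EIF2AK3 (PERK), the kinase of the endoplasmic reticulum, had 0.42 and 0.49 (SE 0.20 each), with adjusted p of 0.386 and 0.352 by edgeR and 0.0217 and 0.0131 with the block. EIF2AK2 (PKR), the kinase that binds double-stranded RNA and an interferon target, rose with IFNγ by 1.37 (SE 0.10, edgeR adjusted p = 6.84e-06) and had 0.07 and −0.12 with doxycycline.

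The parallel arms of the unfolded protein response, ATF6 and XBP1, drive endoplasmic reticulum chaperones. A list of 16 genes held chaperones and other genes of these arms, among them ATF6 and XBP1. With doxycycline edgeR called none of them higher and 1 lower, with 2 and 1 at an unadjusted p under 0.05. That gene was DNAJB9, a co-chaperone of BiP, with 31.2 to 37.5 CPM in C and 16.7 to 20.6 CPM in D. Its log2 fold change was −0.95 (SE 0.12, edgeR adjusted p = 0.00491) in D vs C and −1.02 (SE 0.12, adjusted p = 0.00484) in DI vs I. The call held in each of the 12 fits that left out 1 library and in none of the 3 that left out a replicate number, and the block also called CALR lower in D vs C. The medians of that list were −0.07 and −0.12, with 7 and 4 of the 16 above 0. XBP1 had 0.66 (SE 0.30) and 0.38 (SE 0.30) and was not called. PDIA6 rose with IFNγ (0.65, SE 0.07, edgeR adjusted p = 0.000198).

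Of 12 p53 targets, a list checked because SESN2, TRIB3 and DDIT4 also respond to other stresses, none was called with doxycycline, with 1 and 2 at an unadjusted p under 0.05, 0 by DESeq2 and 1 lower in each comparison (RRM2B) with the block. CDKN1A (p21) had −0.75 (SE 0.63) and −0.85 (SE 0.63), and RRM2B −0.68 and −0.57 (SE 0.24 each). FAS, a death receptor, rose with IFNγ by 2.98 (SE 0.54, edgeR adjusted p = 0.00771), and the block also called ZMAT3 higher with IFNγ. Of 12 immediate early genes 9 were tested and none was called with doxycycline by edgeR, with 2 and 1 at an unadjusted p under 0.05, while DESeq2 called KLF6 lower in DI vs I and the block called it lower in both. IER3 had −0.69 (SE 0.30) and EGR1 0.50 (SE 0.76) in D vs C, and KLF6 rose with IFNγ by 0.50 (SE 0.08, edgeR adjusted p = 0.00359).

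Of 18 paralogues of the members, 13 were tested and none was called with doxycycline, with 2 and 1 at an unadjusted p under 0.05 and 0 by DESeq2. The block called CEBPA higher in D vs C. Its log2 fold change was 2.35 (SE 0.78, edgeR adjusted p = 0.20, with the block 0.0485), but it was at 0.00 to 0.447 CPM in C and 1.03 to 1.33 CPM in D, close to the floor. INHBC, the liver paralogue that lies beside INHBE, had 1.26 (SE 1.01), JDP2 1.22 (SE 0.57) and CEBPG, a dimer partner of ATF4, 0.60 (SE 0.21). INHBC was also close to the floor, at 0.246, 0.546 and 0.00 CPM in C and 0.858, 0.362 and 0.753 CPM in D. In D vs C, FOSL2 had 0.46 (SE 0.87), TRIB1 0.33 (SE 0.27) and CHAC2 0.24 (SE 0.42). TRIB2 had 0.16 (SE 0.19), FOS 0.15 (SE 1.24) and SESN3 0.08 (SE 0.18). SESN1 had −0.18 (SE 0.23), CEBPD −0.46 (SE 0.85) and INHA −0.59 (SE 1.0). Of these genes, from FOSL2 to INHA, only TRIB2 differed in the same direction in each replicate number. FOSL2 rose from 6.16 to 26.9 CPM in replicate 2 but was lower in D in replicates 1 and 3. INHA rose from 8.89 to 22.9 CPM in replicate 2 and was also lower in D in replicates 1 and 3. SESN3 rose with IFNγ (0.58, SE 0.13, edgeR adjusted p = 0.0294), a call lost in 8 of the 12 fits that left out 1 library, with adjusted p up to 0.0836, while with the block its adjusted p was 0.000599. The block also called CEBPD higher and TRIB2 lower with IFNγ. CEBPD, another C/EBP factor, had 15.1, 10.7 and 3.18 CPM in C and 49.7, 39.3 and 16.5 CPM in I, and 8.77, 11.3 and 0.869 CPM in D against 30.7, 43.7 and 7.43 CPM in DI. Each replicate number was higher with IFNγ, with no overlap of I and C but with overlap of DI and D. The log2 fold change was 1.91 (SE 0.61), with an adjusted p of 0.161 by edgeR and 0.000148 with the block. TRIB2 had −0.26 (SE 0.13), with an adjusted p of 0.522 by edgeR and 0.0192 with the block. FOSL1, CEBPE, DDIT4L, INHBA and INHBB were too low to test, with at most 39 counts over all libraries.

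**Figure D4:**
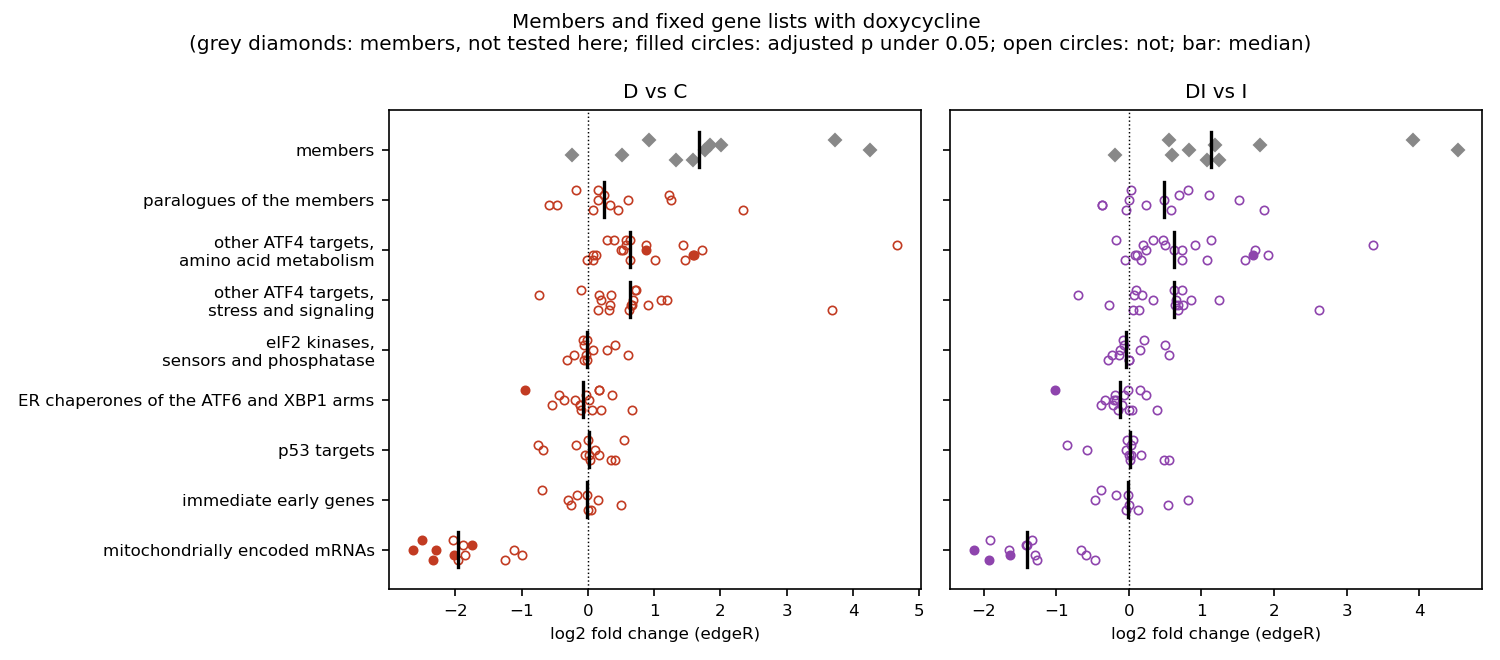
Log2 fold change with doxycycline for the 10 members and for the tested genes of each list, in D vs C (left) and DI vs I (right). Grey diamonds are members, which were not tested here, filled circles passed an edgeR adjusted p under 0.05, open circles did not, and bars are medians. The medians of both lists of further ATF4 targets lie between 0.62 and 0.64, those of the kinases, chaperones, p53 targets and immediate early genes between −0.12 and 0.02, and that of the mitochondrially encoded mRNAs at −1.963 and −1.40.

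Other measures moved with doxycycline beside the members. The 13 mRNAs encoded by the mitochondrial genome took 3.35 to 4.99% (C) and 2.90 to 4.42% (I) of all counts without doxycycline, but 0.856 to 1.30% (D) and 0.768 to 2.58% (DI) with it. D and DI replicate 3, in which most members were highest, had the lowest share of their groups, but so did C and I replicate 3. All 13 had negative log2 fold changes in both comparisons, with 6 called lower in D vs C (ND6, ND4, ND4L, COX1, ND5 and ND3) and 3 in DI vs I (ND6, ND4L and ND5) by edgeR, and 13 and 12 with the block. ND6 was called in each of the 12 fits that left out 1 library in both comparisons. In D vs C, ND4 and ND4L were called in 9 of those fits, ND5 in 8, COX1 in 6 and ND3 in 3, and in DI vs I ND4L and ND5 were each called in 1. The largest was ND6, a subunit of complex I, at −2.63 (SE 0.27, edgeR adjusted p = 0.00224) in D vs C and −2.13 (SE 0.26, adjusted p = 0.00497) in DI vs I. The part of mitochondrial RNA in the members' difference was not tested. The 9 neuroblastoma markers summed to between 4720 and 5450 CPM in C and between 4470 and 5070 CPM in D, with a similar overlap of I (4620 to 5580 CPM) and DI (4220 to 5520 CPM), and none was called with doxycycline by edgeR, with 1 at an unadjusted p under 0.05 in each comparison. By DESeq2 TH was lower in D vs C, and with the block DBH and HAND2 were lower in D vs C and HAND2 in DI vs I. TH, the rate-limiting enzyme of catecholamine synthesis, had 47.3, 3.13 and 74.7 CPM in C and 1.33, 7.04 and 0.695 CPM in D, lower in replicates 1 and 3 and higher in replicate 2 (log2 fold change −3.78, SE 1.32, edgeR adjusted p = 0.219). DBH, which acts after it, had −0.93 (SE 0.68, edgeR adjusted p = 0.601). PHOX2A rose with IFNγ by 0.38 (SE 0.06, edgeR adjusted p = 0.00533), and MYCN was called lower with IFNγ by DESeq2 and with the block. The 7 markers of other cells summed to at most 8.28 CPM in any library, CD3E and PECAM1 had 0 counts in all 12, and none of the 4 that were tested was called by edgeR, DESeq2 or the block, with 1 at an unadjusted p under 0.05 for D vs C and 0 for DI vs I, and COL1A1 at 1.54 (SE 1.31) and EPCAM at 1.36 (SE 0.53) in D vs C.

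The genes whose pattern over the 12 libraries was most like that of the members were sought among 13946 tested genes with a mean of at least 1 CPM, by the root-mean-square difference of log2(CPM + 0.5) centred on each gene's mean. INHBE and CHAC1 were close to each other (0.347), and the nearest other genes of both were ADM2, ASNSP1 and SLC7A11, in that order. ADM2, a secreted peptide of the calcitonin family, was at 0.543 from INHBE and 0.350 from CHAC1, with means of 0.446 CPM (C), 8.12 (D), 0.243 (I) and 5.18 (DI). It was close to the floor in C and I, and ran from 1.76 to 17.9 CPM in D and from 1.38 to 9.32 CPM in DI. ASNSP1, a pseudogene of asparagine synthetase whose reads may come in part from ASNS, was at 0.635 and 0.573. SLC7A11, the cystine transporter that supplies glutathione synthesis, was at 0.730 and 0.636, with means of 2.04 CPM (C), 51.8 (D), 3.87 (I) and 39.9 (DI). Its libraries ran from 7.66 to 114 CPM in D and from 8.46 to 74.7 CPM in DI. The median profile of the members was nearest to HERPUD1 (0.272), AKNA (0.277) and ASNS (0.294). HERPUD1, which serves degradation of endoplasmic reticulum proteins, ran from 45.7 to 48.6 CPM in C and from 68.4 to 164 CPM in D, and AKNA, an AT-hook protein, from 9.41 to 14.7 and from 18 to 80.2 CPM. ASNS, asparagine synthetase, ran from 1.72 to 2.28 CPM in C and from 3.24 to 9.79 CPM in D. These genes were picked for likeness to a pattern that holds the doxycycline difference, so their levels are a description.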

How the data were processed

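The authors deposited raw counts per gene, whole numbers for 43769 genes in 12 libraries (Illumina PE150, total RNA). The aligner, the counting tool and its use of strand are not given in the sources used here. All gene identifiers matched GENCODE release 29 (GRCh38), which gave positions and lengths. The authors' own comparisons, deposited as tables of log2 fold changes and p-values from DESeq2, were not used, nor were 18 per-library columns in them whose names the labels do not explain. No library was left out of the main fit. Groups and replicate numbers were taken from the labels.

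Using edgeR 4.0.16 and limma 3.58.1 under R 4.3.3, counts were TMM-scaled, filtered by filterByExpr (minimum count 10) and fitted by quasi-likelihood with the 4 groups in the same model, with two-sided tests and Benjamini-Hochberg adjustment over 15828 genes. CPM and RPKM used TMM-scaled library sizes. SEs and 95% intervals came from the same fit and cover the spread between libraries, and the floor of 3 counts covers counting error only. The code was tested on simulated data with differences planted for the average effect of IFNγ only. That simulation had no pairing by replicate number and did not check the doxycycline comparisons, the interaction or the block. Alternatives were DESeq2 1.42.0, other scalings, no filter, an adjusted p under 0.01, the replicate number as a block, and leaving out each library or each replicate number. The members and lists were chosen with earlier results of these data known. Genes named are the members, ARID1A, all tested paralogues, up to 4 genes of each list with the largest differences called in D vs C (up to 2 where none was called), and the 3 genes nearest in pattern to INHBE, to CHAC1 and to the members' median. Other genes of the lists that passed a test, and those too low to test, were named after their values were seen.

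Same-numbered libraries deviated together from their group means: the 18 pairs that share a number correlated at 0.338 to 0.804, and the 36 other pairs at −0.628 to 0.143. The replicate numbers therefore pair the libraries, although the labels do not say what a number marks. The block is given beside results whose calls it changed. Most of the members' printed SEs with doxycycline are from the fit without the block. With the block the SE of each member was smaller in both comparisons, most so for ATF3 and TRIB3. Most of the members' log2 fold changes were lower too, with medians of 1.441 (D vs C) and 1.039 (DI vs I). In D vs C INHBE was then at 3.841 and CHAC1 at 3.293. ATF4 in both comparisons and ATF3 in DI vs I were slightly higher.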

Additional observations from a re-analysis of the deposited data

How the results depend on the processing

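With the replicate number as a block (paired analysis), the genes called went from 194 to 2200 in D vs C, from 106 to 1658 in DI vs I and from 603 to 1724 for the average effect of IFNγ, further ATF4 targets called higher went from 2 to 22 and from 1 to 17, the interaction stayed at 0 with 374 genes at an unadjusted p under 0.05, and no member was called with IFNγ. DESeq2 gave 814, 617, 935, 15, 10 and 2 (the interaction). An adjusted p under 0.01 left 32, 30 and 396 genes and 1 further ATF4 target in D vs C, no filter left 119 genes in D vs C, and scaling by library size alone gave 4 further ATF4 targets in D vs C. Leaving out 1 library or 1 replicate number gave 0 to 195 genes in D vs C, 0 to 96 in DI vs I, 230 to 562 for IFNγ, 0 to 3 and 0 to 1 further ATF4 targets, 0 members with IFNγ, and members' medians of 0.85 to 1.97 and 0.63 to 1.35. In the same fits TRIB3 ran from −0.233 (without D replicate 3) to 1.337 in D vs C and from −0.042 (without DI replicate 3) to 0.966 in DI vs I. DDIT4 ran from −0.695 to 0.132 and from −0.936 to 0.21, and its sign turned to 0.13 in D vs C without D replicate 1 and without replicate 1, and in DI vs I to 0.12 without I replicate 3, 0.16 without DI replicate 1, 0.07 without replicate 1 and 0.21 without replicate 3. The cause of these shifts was not tested. The other 8 members kept the sign of their doxycycline difference in every alternative. INHBE in C and I rests on 7 to 35 counts a library, which limits its fold.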
